A study of Mus musculus with 12 samples.

Results

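The cytosolic ribosomal protein genes encode the protein components of the ribosomes that translate nuclear-encoded mRNAs. They were taken as every row whose symbol is Rpl or Rps (with Rplp for the stalk proteins) followed by a number and at most 1 of the letters a, x or l. The rule found 81 genes, 49 of the large (Rpl) and 32 of the small (Rps) subunit, of which 79 were in both expression tables: 80 of 23235 rows in fetal liver and 80 of 24421 rows in fibroblasts. Rps3a was present under that symbol in liver only and Rps4l in fibroblasts only. The study sequenced total RNA of mouse fetal livers at embryonic age E12.5 and of immortalized mouse embryonic fibroblasts (MEFs), with no treatment in any group. In each tissue wild type (WT) was set against G2A, labelled Rpt2G2A/G2A, which is homozygous for a knock-in allele of the proteasome ATPase Rpt2, encoded by Psmc1. As background, the allele replaces the glycine that carries the N-myristoyl lipid anchor. The livers came from 3 pairs of WT and G2A littermates, and 3 WT and 2 G2A MEF libraries were analysed. Nothing in the labels said whether the MEF libraries were separate cultures or lines, so p-values measured only the spread between these libraries.

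As background, a ribosome contains each of these proteins in a fixed stoichiometry, and their mRNAs are among the most abundant of growing cells. Most of the mRNAs start with a C followed by a run of pyrimidines, the 5′ terminal oligopyrimidine (TOP) tract, through which the kinase mTOR and the RNA-binding protein Larp1 control their translation. Unassembled ribosomal proteins are degraded by the proteasome, and free Rpl5 and Rpl11 bind the ubiquitin ligase Mdm2 and stabilize p53. Fetal liver at this age is a site of red cell production, and heterozygous mutations of single ribosomal protein genes cause the red cell aplasia Diamond-Blackfan anaemia.

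Start sites are shown for genes on which the results turned, and for others with a long tract, as the letters that the TOP definition reads. Each window holds 15 bases before and 15 from the annotated start of a RefSeq transcript in GRCm38.p6, 5′ to 3′ on the gene's strand, with the pyrimidine run in capitals.
Rps6, chr4:86857353-86857382, minus strand: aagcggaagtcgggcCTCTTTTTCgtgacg
Rps18, chr17:33955651-33955680, minus strand: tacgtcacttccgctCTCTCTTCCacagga
Rpl15, chr14:18270972-18271001, minus strand: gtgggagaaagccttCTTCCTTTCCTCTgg
Rpl38, chr11:114668565-114668594, plus strand: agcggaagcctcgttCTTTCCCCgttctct
Rps27l, chr9:66946071-66946100, plus strand: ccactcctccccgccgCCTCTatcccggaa
Rpl27, chr11:101442230-101442259, plus strand: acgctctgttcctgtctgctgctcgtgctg
Rpl11, chr4:136053379-136053408, minus strand: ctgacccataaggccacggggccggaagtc
In Rps6, Rps18, Rpl15 and Rpl38 the run began at the annotated start. In the Rps27l window shown it began 1 base later, while the other annotated start of Rps27l, at chr9:66946398-66946427, had no run within 5 bases, and in Rpl27 and Rpl11 no such run lay within 5 bases of the start given.

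Of the 81 genes, 59 had a promoter window in the RefSeq table. A C with at least 4 further pyrimidines began at the annotated start in 13 of the 59 genes (22%), against 3.0% of 27025 genes with a window. Within 5 bases of the start the shares were 47.5% and 21.2%. The sequence CCGGAAG, on either strand of the 300 bases around the start, was present in 40.7% of these genes and in 9.9% of all, TATAAA in 10.2% and 15.7%. For CCGGAAG the shares were 40.5% of large and 40.9% of small subunit genes. A match describes the letters of the window only. The genes were spread over 19 chromosomes, with 14 of the 79 with a gene model on chromosome 7.

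Ribosomal protein genes have many processed copies, so reads trimmed to 50 bases can be ambiguous. Of the 79 genes with a gene model, 45 had at least 50% of the 50-base words of their transcript elsewhere in the genome, and 34 had fewer. How the authors assigned such reads is not given in the sources used here, so levels of single genes are uncertain where this share is high. The liver libraries are given in FPKM (fragments scaled to transcript length and library size), with unknown read depth. The MEF libraries held 36415586 to 37695116 gene reads. The labels fitted the tissue markers: Alb was at 2480 to 4150 FPKM in the livers, and in MEFs Col1a1 was at 147440 normalized reads or more while Gata1 and Hba-a1 were at 0. Psmc1 was at 178 to 181 FPKM in WT and 145 to 161 in G2A livers, and at 6485 to 8589 and 10658 to 10913 normalized reads in WT and G2A MEFs, values which do not show the amino acid change itself.

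One library in each tissue stood apart. On the first principal component G2A liver 3 lay at 7.91, nearer the WT livers (13.3 to 23.3) than the other G2A livers (-30.6 and -34.9). WT MEF 3 lay at -72.5, beside the G2A MEFs (-51.6 and -55.2) and far from WT MEFs 1 and 2 (87.2 and 92.0). Xist, the RNA of the inactive X chromosome, was at 2 and 0 recovered reads in WT MEFs 1 and 2 and at 40791, 9842 and 13578 in WT MEF 3 and G2A MEFs 1 and 2. Kdm5d, on the Y chromosome, was at 716 and 573 against 0, 8 and 0. Both G2A MEFs thus shared the state of 1 WT MEF, and 0 G2A MEFs that of the other 2. By these 2 genes the state is that of sex. WT MEF 3 and the G2A MEFs appear female, and WT MEFs 1 and 2 male. Genotype and sex are therefore partly confounded in MEFs. Whether WT MEF 3 differs by label or by line cannot be told apart from these values. Every WT to G2A value in MEFs carries that doubt. Results are therefore also given without these libraries and with Xist state in the fit.

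In WT liver the ribosomal protein mRNAs were a large and uneven block. The median gene was at 1609 FPKM, 62 of 80 genes were above 1000 FPKM, and 7 were below 100. The highest were Rps26, at 4648 ± 197 FPKM (SD, n = 3), Rpl41, encoding the shortest of these proteins, at 4282 ± 65.5, and Rplp1 of the stalk at 3988.5 ± 176, followed by Rpl35 and Rpl28. At the other end stood the tissue-restricted copies Rpl3l, used in striated muscle, and Rpl10l and Rpl39l, used in testis, at 0.0166, 0.0238 and 1.21 FPKM. Rps27, the small subunit gene whose copy Rps27l was at 271 FPKM, was listed at 2.44, and Rpl26 at 23.1. The share of 50-base words found elsewhere was 99.7% for Rps27 and 81.8% for Rpl26, and its part in these low values was not tested.

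In WT MEFs levels per length, in normalized reads per kilobase of transcript, had a median of 21778 over the 78 genes with a gene model, which leaves out Rpl41 and Rps4l. Among these Rps26 led at 99053, followed by Rps2, a protein of the mRNA channel, at 78865, Rps15 at 67035, and Rplp0 and Rplp1 of the stalk at 64246 and 62898. Rpl26 was listed at 0 in all 5 MEF libraries and Rpl30 at 1.97 to 12.7 normalized reads. Rpl34, at 1706 FPKM in WT liver, was at 74.7 normalized reads in WT MEFs, while Rps27 was at 101. Levels of FPKM and of normalized reads were not compared with each other. These per-kilobase values use 1 transcript per gene, and the chosen model is 3706 bases long for Rps20, so its 2759 per kilobase depends on that choice.

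The first comparison took the effect of the G2A allele on ribosomal protein mRNAs in fetal liver. In G2A liver they lay slightly and almost uniformly below WT, with a median log2 fold change of -0.08, but this direction turned to 0.02 (46 of 77 above 0) under quantile normalization. Of 77 genes tested, 72 lay below 0 and 5 above, beside a median of 0.01 over all 12938 genes tested. None of the 77 passed limma's test at a Benjamini-Hochberg adjusted p under 0.05 in either direction (background 0.00773% of all genes lower and 0.0155% higher). At an unadjusted p under 0.05, 7 were lower (background 12.4%) and 0 higher (background 9.07%). Every G2A library was below every WT library for 27 genes, 35.1% of those tested (background 15.7%), and above for 0 (background 11.8%).

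By library, the mean log2 level of the 77 genes relative to the WT mean was 0.00, 0.04 and -0.04 in WT livers 1, 2 and 3 and -0.09, -0.12 and -0.07 in G2A livers 1, 2 and 3. By the median over the genes the groups overlapped, since G2A liver 3 lay at -0.04 and WT liver 3 at -0.05. The 34 genes with fewer than 50% of words elsewhere had a median of -0.07 over the 31 tested, and the 45 others -0.08. Without G2A liver 3 the median was -0.10, and 42 genes were lower without overlap and 0 higher (background 27.3% and 33.2%). Rpl27 and Rps27l then passed the test, at log2 fold changes of -0.24 and -0.53 (limma adjusted p = 0.0317 and 0.0101, background 12% lower and 12.4% higher). With Xist state in the liver fit the median was -0.08 and no gene passed (background 0.00773% lower and 0.0309% higher). Within livers with Xist at 48.3 FPKM or more (2 WT, 1 G2A) the median was -0.12, and within those with Xist under 1 FPKM (1 WT, 2 G2A) it was -0.06.

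**Figure D1:**
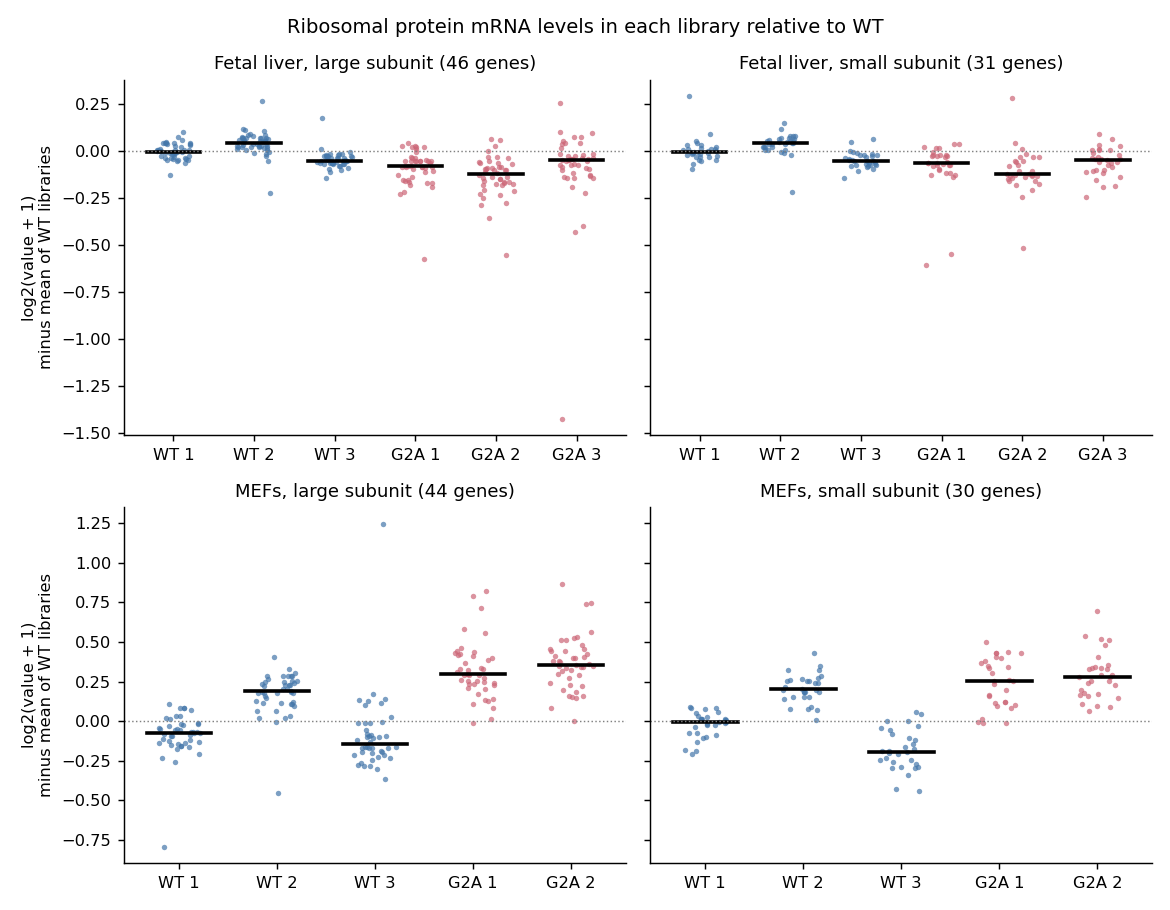
Each point is 1 ribosomal protein gene in 1 library, as log2(value + 1) minus the gene's mean over WT libraries (y axis), by library (x axis; WT blue, G2A red), in panels by tissue and subunit, with black bars for the median; Rps4l is not drawn. The liver medians of G2A lay at -0.04 to -0.12, a direction that quantile normalization turned to 0.02 in the fitted fold changes, and the MEF medians of G2A lay above all 3 WT libraries.

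Among large subunit genes, Rpl27 had the smallest p in liver. Rpl27 (ENSMUSG00000063316.7, protein coding with 5 exons, on chromosome 11 from 101303612 to 101306843, plus strand, in NCBIM37, also called mm9), mutated in some patients with Diamond-Blackfan anaemia, was at 834, 796 and 798 FPKM in WT livers and 698, 669 and 695 in G2A livers. All G2A livers were below all WT livers, a log2 fold change of -0.24 (SE 0.05, limma adjusted p = 0.112). Rpl11 (minus strand of chromosome 4), which joins Rpl5 and the 5S rRNA in a particle of its own before assembly, was at 2370, 2406 and 2334 FPKM in WT and 2024, 2047 and 1758 in G2A livers. The groups did not overlap, and the log2 fold change was -0.29 (SE 0.08, adjusted p = 0.137). Its partner Rpl5 was at 633, 665 and 619 FPKM in WT and 650, 610 and 633 in G2A livers, with overlapping groups and a log2 fold change of -0.02 (adjusted p = 0.877). Thus, of the pair that binds Mdm2, only Rpl11 had groups apart; the difference between both genes was not tested.

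Rpl37, a zinc-binding protein of the large subunit, was at 381, 377 and 375 FPKM in WT and 351, 321 and 347 in G2A livers. All 3 G2A livers were lower (log2 fold change -0.15, SE 0.06, adjusted p = 0.186). Rpl30 was at 76.5, 63.5 and 84.2 FPKM in WT and 65.0, 57.9 and 56.0 in G2A livers, overlapping at WT liver 2 (log2 fold change -0.31, adjusted p = 0.195). Rpl26, at the rim of the exit tunnel for the growing protein chain, was at 20.9, 27.8 and 20.6 FPKM in WT and 15.1, 20.8 and 7.91 in G2A livers. It had the most negative log2 fold change of the genes tested, -0.71, with an SE of 0.32 (adjusted p = 0.266), and G2A liver 2 overlapped WT. Library weights, which limma estimates from how each library scatters, brought 8 genes past the threshold as lower and 0 as higher (background 20.7% and 26.1%), among them Rpl27, Rpl11, Rpl26 and Rps27l.

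The stalk, through which the ribosome recruits elongation factors, was lower in every G2A liver for all 3 of its genes (15.7% of all genes and 35.1% of the ribosomal protein genes were so), none of which passed the test. Rplp0 was at 2437, 2658 and 2411 FPKM in WT and 2341, 2206 and 2281 in G2A livers (log2 fold change -0.14, adjusted p = 0.325). Rplp1 and Rplp2 had log2 fold changes of -0.15 and -0.09 (-0.085 before rounding; adjusted p = 0.33 and 0.415). Of 9 genes at the tunnel rim, 7 were below 0 (median -0.06). Rpl38, a rim protein known for its effect on the translation of Hox mRNAs in mouse embryos, varied widely in G2A livers, at 2699, 2855 and 3643 FPKM beside 3272, 2942 and 2949 in WT (log2 fold change -0.0053, adjusted p = 0.984). Rpl36 was also uneven, at 1349, 955 and 1477 FPKM in G2A and 1350 to 1435 in WT livers.

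Among small subunit genes Rps27l had the smallest p. Rps27l (ENSMUSG00000036781.7, 4 exons, on chromosome 9 from 66793893 to 66797323, plus strand), a p53-inducible copy of Rps27, was at 268, 286 and 257 FPKM in WT and 185, 189 and 237 in G2A livers. The groups did not overlap, with G2A liver 3 nearest to WT, and the log2 fold change was -0.41 (SE 0.11, adjusted p = 0.125). It had 26.7% of its 50-base words elsewhere. Rps15a was at 65.0, 64.3 and 63.8 FPKM in WT and 61.3, 56.8 and 58.6 in G2A livers (log2 fold change -0.13, adjusted p = 0.221). Rps6, the target of S6 kinase, Rps19, the gene most often mutated in Diamond-Blackfan anaemia, and Rps27a, made as a fusion with ubiquitin, had overlapping groups and log2 fold changes of -0.05, -0.05 and -0.05, the last turning to 0.08 under quantile normalization. All 5 genes of the mRNA channel and decoding site were below 0 (median -0.07), Rps9 at -0.13 without overlap.

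Among the 5 genes above 0 were Rpl17, Rps24, Rpl22 and Rpl13a, at log2 fold changes of 0.07, 0.04, 0.03 and 0.01. Each of these had overlapping groups. Of 18 genes mutated in Diamond-Blackfan anaemia, 17 were below 0 (median -0.09), Rps24 being the exception. The whole set was much the same, with 72 of 77 below 0 (median -0.08).

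By their medians, other genes of ribosome production lay further below WT in G2A liver than the ribosomal proteins, a difference that was not tested. In G2A liver 3 this held for initiation factors, with a median of -0.08 relative to the WT mean beside -0.04 for ribosomal proteins. It did not hold there for assembly factors, at -0.004. Of 47 nucleolar assembly factors 46 were below 0 (median -0.20), and of 30 initiation factors 27 (median -0.22), with 0 of each past the test. Emg1, an rRNA methyltransferase, had 146 ± 6.54 FPKM in WT livers against 119 ± 2.85 in G2A livers (SD, n = 3 each, adjusted p = 0.0914), and Eif3l, an initiation factor 3 subunit, 228 ± 4.18 against 188 ± 8.19 (adjusted p = 0.0917). All 11 genes of the RNA polymerase I machinery were below 0 (median -0.14), as were 7 of 8 ribosomal protein chaperones (median -0.15). Of 15 other mRNAs with a TOP tract 9 were below 0 (median -0.01), Eef1d of elongation factor 1 lying at -0.36 (adjusted p = 0.112). Among 18 regulators the median was -0.02, and Eif4ebp1, an mTOR target that blocks initiation, had 120 ± 8.18 FPKM in WT livers against 171 ± 14.1 in G2A livers (log2 fold change 0.50, adjusted p = 0.0902). Of 8 genes in a list meant for ribosomal proteins with other symbols, such as Rpl36al, 6 were below 0 (median -0.03). That list also holds Rpl10a, which is already in the set.

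Cell type markers also differed between these livers, none past the test, and their part in these values was not tested. Of 17 erythroid markers tested, from a list of 20, 16 were below 0 (median -0.43). Their summed level was 13882 to 21124 FPKM in WT and 11045 to 22111 in G2A livers, and none was at 0 throughout. Relative to the WT mean this list lay at -0.58 and -0.71 in G2A livers 1 and 2 and at 0.07 in G2A liver 3, where the ribosomal protein mean was -0.07. Assembly factors lay at -0.26, -0.32 and -0.01 in the same order. Summed globin genes, also erythroid, went the other way. They held 7.85%, 9.28% and 5.60% of FPKM in G2A livers 1, 2 and 3, beside 4.44% to 4.98% in WT livers. Of 10 mesenchymal markers 9 were above 0 (median 1.08), with summed levels of 451 to 666 FPKM in WT and 987 to 2004 in G2A livers. Endothelial markers were above 0 for 8 of 9 genes (median 0.25), hepatoblast markers below 0 for 8 of 14 (median -0.08) and macrophage markers above 0 for 5 of 9 (median 0.0027). In bulk tissue, fewer cells of a type and less RNA per cell cannot be told apart.

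**Figure D2:**
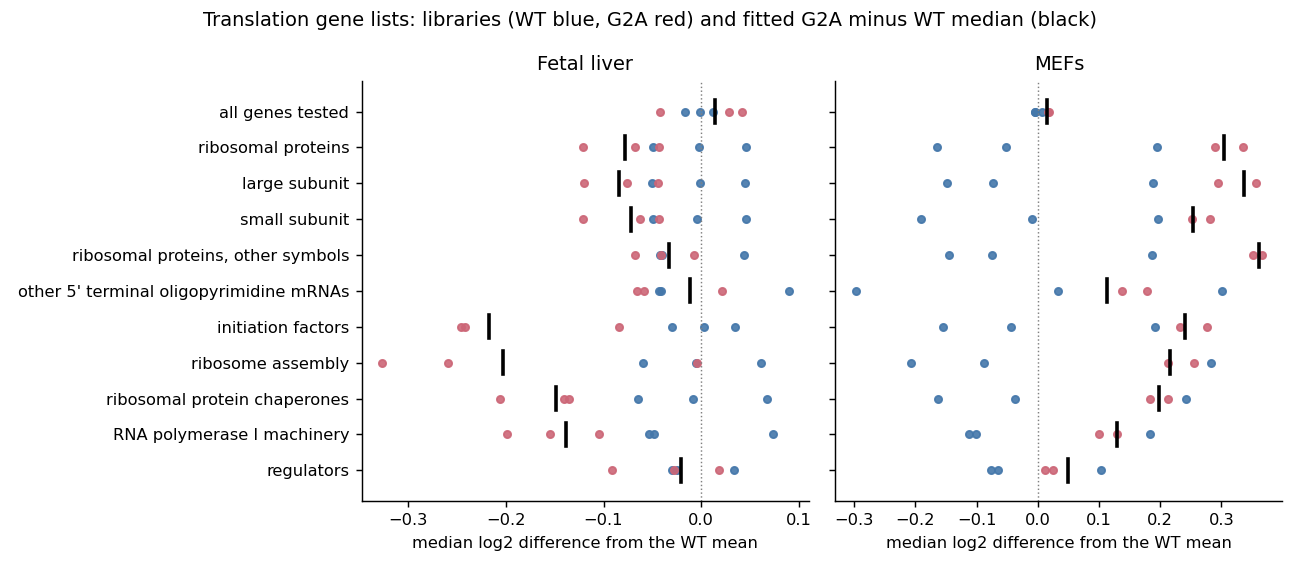
Points are the median over the genes of each list in each library, as log2(value + 1) minus the gene's WT mean (x axis; WT blue, G2A red), and black bars the median fitted fold change of G2A. In liver initiation and assembly factors lay further below 0 (-0.22 and -0.20) than ribosomal proteins (-0.08), though assembly factors in G2A liver 3 lay at -0.004. Under quantile normalization ribosomal proteins turned to 0.02, and such values of the other lists are not given. In MEFs all 3 of these lists lay above 0.

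In MEFs the comparison had the opposite sign. Ribosomal protein mRNAs lay above WT in G2A MEFs for 74 of 75 genes tested, with a median log2 fold change of 0.30 beside 0.02 (0.015 before rounding) over all 13241 genes. The exception was Rplp2, at -0.0043. None passed limma's test (background 0% in either direction) or edgeR's quasi-likelihood test on the recovered reads, whereas DESeq2 called 10 higher and 0 lower (background 2.95% and 4.86%). Library weights brought 47 past limma's test as higher and 0 as lower (background 23.8% and 22.5%). At an unadjusted p under 0.05 by limma, 16 were higher (background 6.9%) and 0 lower (background 7.48%). Both G2A libraries were above all 3 WT libraries for 48 genes, 64% (background 18.9%), and below for 0 (background 18%). This held for 14 of 30 genes (46.7%, median 0.24) with fewer than 50% of 50-base words elsewhere, and for 33 of 43 others (76.7%, median 0.34).

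By library the median of the 75 genes relative to the WT mean was -0.05, 0.19 and -0.17 in WT MEFs 1, 2 and 3 and 0.29 and 0.33 in G2A MEFs 1 and 2. WT MEF 2 was thus the WT library nearest to G2A. WT MEF 3, which stood with G2A on the first principal component, was the lowest by this measure. Leaving it out gave a median of 0.23 with 66 genes above 0, and 50 genes were higher and 2 lower without overlap (background 34.6% and 33.1%). Then 6 genes passed as higher and 0 as lower (background 11.7% and 11.5%): Rpl21, Rpl38, Rpl23a, Rpl19, Rpl11 and Rps4l. With Xist state in the fit, which sets the G2A MEFs against WT MEF 3 alone and assumes that this library varies like the others, the median was 0.43, 73 of 75 genes were above 0, and Rpl21 alone passed (limma adjusted p = 0.0444, background 1.6% higher and 1.85% lower). The 2 genes below 0 in that fit were Rpl11 and Rps4l.

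Rpl21 had the smallest p of the MEF genes. Rpl21 (ENSMUSG00000041453.6, 6 exons, on chromosome 5 from 147644466 to 147648608, plus strand), a large subunit protein, was at 8315, 9584 and 8843 normalized reads in WT and 15412 and 14865 in G2A MEFs. Both G2A libraries were far above WT, and the log2 fold change was 0.77 (SE 0.11, limma adjusted p = 0.269). Rpl38 was at 2739, 3361 and 3614 normalized reads in WT and 5273 and 5860 in G2A MEFs, again apart (0.79, SE 0.15, adjusted p = 0.269). DESeq2 called both (adjusted p = 2.72e-09 and 0.00104). The same 2 genes had overlapping groups in liver, as did Rpl23a, a docking site for factors that meet the emerging chain. Rpl23a was at 21027, 24856 and 25808 normalized reads in WT and 35021 and 34394 in G2A MEFs (0.54, adjusted p = 0.283).

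Among small subunit genes, Rps27a was at 10263, 11050 and 10279 normalized reads in WT and 13381 and 17081 in G2A MEFs (0.52, adjusted p = 0.282). Rps29, mutated in Diamond-Blackfan anaemia, was at 3458, 3455 and 2965 in WT and 4150 and 4764 in G2A MEFs (0.44, adjusted p = 0.291). Rps25, needed for initiation at some viral RNAs, had a log2 fold change of 0.46 (adjusted p = 0.298). In Rps27a, Rps29 and Rps25 the groups did not overlap. Rpl27 and Rps27l, the lowest-p genes of the liver, were above WT without overlap here, at 0.45 and 0.22 (adjusted p = 0.32 and 0.41). Rplp0 and Rplp1 of the stalk were at 0.30 each and Rplp2 at -0.0043, with Rplp2 at 8723, 8750 and 6913 normalized reads in WT and 8019 and 8095 in G2A MEFs. Rps19, Rps6 and Rpl22, a large subunit protein needed in T cell development, had overlapping groups and log2 fold changes of 0.03, 0.25 (0.245 before rounding) and 0.16.

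Rpl11 and Rps4l split the MEF libraries in another way. Rpl11 was at 17278 and 21897 normalized reads in WT MEFs 1 and 2, at 71267 in WT MEF 3, and at 52929 and 50343 in the G2A MEFs. Rps4l, a copy of the X-linked Rps4x, had 1 and 0 recovered reads in WT MEFs 1 and 2, 3256 in WT MEF 3, and 2232 and 2431 in the G2A MEFs. Both genes were thus high in the 3 libraries with 9842 or more recovered Xist reads, 1 WT and 2 G2A. With 0 G2A MEFs low in Xist, their level in such a library is not known. In the fit of all 5 libraries their log2 fold changes were 0.78 (SE 0.63, adjusted p = 0.582) and 6.96 (SE 3.59, adjusted p = 0.427), the latter fitted against libraries near 0 reads. Rps4x itself was at 29390 ± 5397 normalized reads in WT (SD, n = 3) and 37654 ± 1097 in G2A MEFs (n = 2). Rps4l was 1 of 39 genes at 10 normalized reads or fewer in WT MEFs 1 and 2 and at 200 or more in the other 3 libraries, with 8 genes the other way around. The paralog partners Rpl3, Rpl10 and Rpl39 were at 0.18, 0.19 and 0.20, while Rpl3l and Rpl39l had few or no reads.

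**Figure D3:**
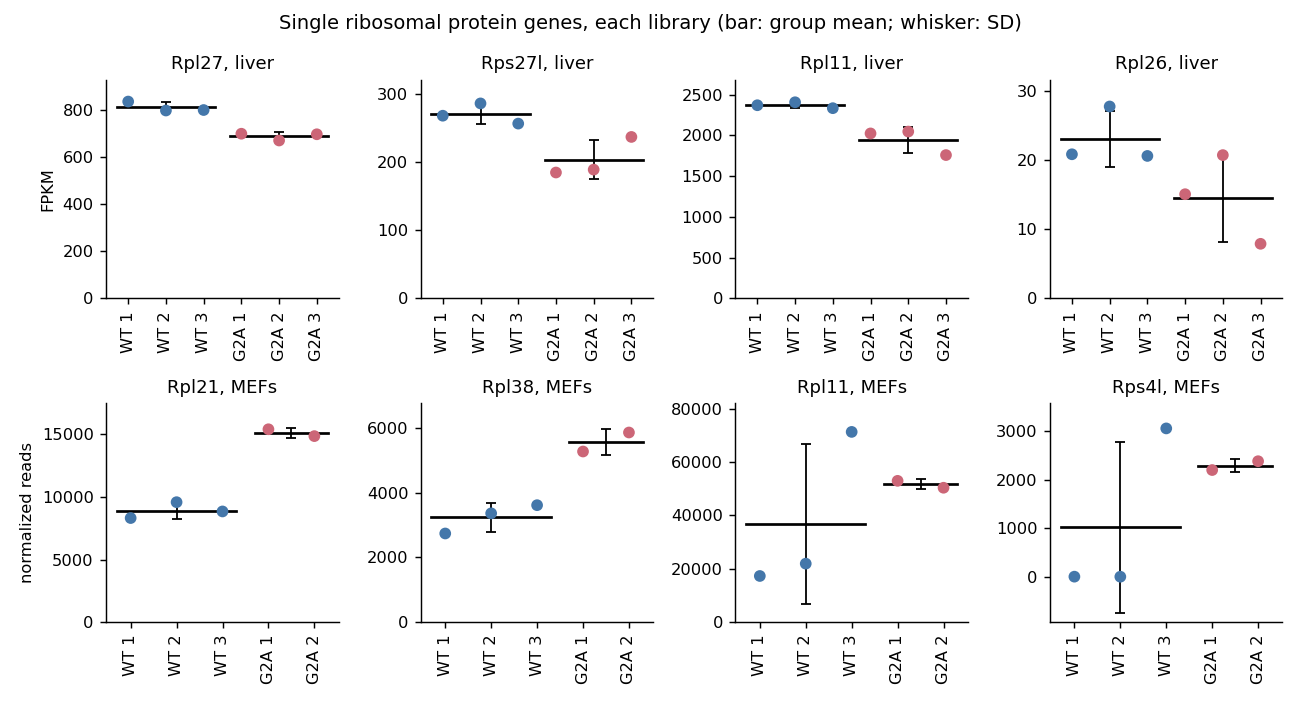
Values of single genes in each library (y axis, FPKM in the upper row and normalized reads in the lower; x axis, library; WT blue, G2A red), with the group mean as a bar and the SD as a whisker. Rpl27 and Rps27l separated the liver groups and Rpl21 and Rpl38 the MEF groups, while Rpl11 and Rps4l in MEFs set WT 3 with the G2A libraries.

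Other genes of ribosome production were mostly above 0 in MEFs as well: 45 of 48 assembly factors (median 0.22) and 25 of 29 initiation factors (median 0.24), with 0 past the test. Mybbp1a, a nucleolar protein, was at 18232 ± 4026 normalized reads in WT and 27486 ± 243 in G2A MEFs (adjusted p = 0.316). Assembly factors were higher in WT MEF 2 (0.27 above the WT mean) than in G2A MEFs 1 and 2 (0.21 and 0.24), so these groups overlapped. All 9 genes in the list meant for ribosomal proteins with other symbols, which also holds Rpl10a of the set, were above 0 (median 0.36). Fau was at 0.42 (limma adjusted p = 0.3). Of 15 other TOP mRNAs 11 were above 0 (median 0.11). All 17 Diamond-Blackfan genes tested were above 0 (median 0.36), beside 74 of 75 in the whole set (median 0.30). Eef2k, the kinase that slows elongation, was at 2506 ± 599 normalized reads in WT and 1334 ± 148 in G2A MEFs (-0.88, adjusted p = 0.28). Mesenchymal markers summed to 456347 to 778011 normalized reads in WT and 280365 to 287852 in G2A MEFs (4 of 9 below 0), and their part in the ribosomal protein values was not tested.

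Summed over all genes of the set, the share of the library showed the same contrast in MEFs but depended on the total in liver. Ribosomal protein genes held 3.76%, 4.48% and 4.08% of normalized reads in WT MEFs and 5.16% and 5.28% in G2A MEFs, without overlap. In liver they held 16.9%, 17.2% and 15.9% of all FPKM in WT and 15.8%, 14.7% and 16.4% in G2A livers, which overlapped at G2A liver 3. Small RNA genes took 16.8% to 21.7% of liver FPKM, and globin genes 4.44% to 4.98% in WT and 5.60% to 9.28% in G2A livers. Taken of the FPKM that remain without both, the shares were 21.6%, 22.3% and 20.9% in WT and 21.6%, 21.3% and 21.3% in G2A livers, within the WT range. On this total the liver groups overlapped.

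**Figure D4:**
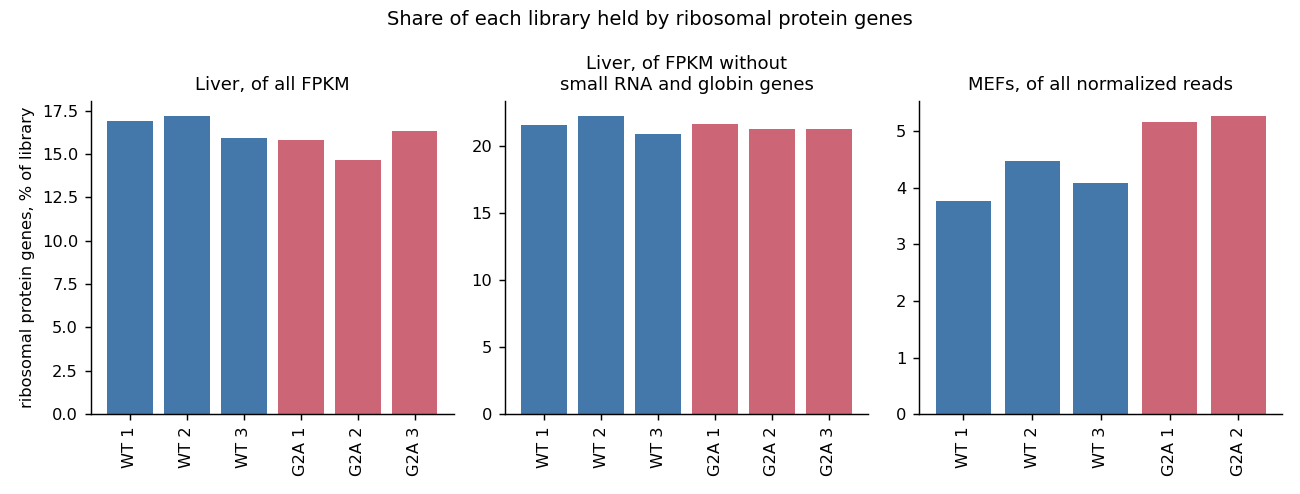
Bars give the summed ribosomal protein values as a percent of each library (y axis from 0; x axis, library; WT blue, G2A red), for all liver FPKM, for liver FPKM without small RNA and globin genes, and for MEF normalized reads. G2A MEFs (5.16% and 5.28%) lay above WT (3.76% to 4.48%), and G2A livers lay within the WT range on the reduced total.

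Large and small subunit genes had similar values in liver and differed more in MEFs. In liver the median log2 fold changes were -0.08 for 46 large (42 below 0) and -0.07 for 31 small subunit genes (30 below 0), both turning positive under quantile normalization, at 0.02 each. The mean log2 level of large minus small subunit genes was 0.12, 0.13 and 0.13 in WT and 0.12, 0.10 and 0.10 in G2A livers. In MEFs the medians were 0.34 for 44 large and 0.25 for 31 small subunit genes, and their difference of 0.08 was 0.02 with Xist state in the fit. By the mean the order was reversed, at 0.34 for large and 0.48 for small subunit genes, the latter with Rps4l at 6.96. The mean log2 level of large minus small subunit genes was 0.65, 0.72 and 0.46 in WT MEFs 1, 2 and 3. In G2A MEFs 1 and 2 it was 0.475 and 0.471, within the WT range. These differences count Rps4l among the small subunit genes. Rps4l had 1 and 0 recovered reads in WT MEFs 1 and 2, but 3256, 2232 and 2431 in WT MEF 3 and G2A MEFs 1 and 2. The differences between MEF libraries therefore depend on that gene, and values without it are not given. Among MEF genes with fewer than 50% of words elsewhere the medians were 0.33 and 0.12. No test was made of one subunit against the other.

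The last comparison set the G2A fold changes of liver and MEFs against each other, each from its own fit. For all 74 genes tested in both, the liver value lay below the MEF value, with a median difference of -0.40 beside -0.02 over 10818 genes. Under quantile normalization 71 of 74 were still below. By the difference over its combined standard error, Rpl21 alone passed as lower in liver (-0.81, SE 0.13, Benjamini-Hochberg adjusted p = 0.035) and 0 passed as higher (background 0.869% and 1.34%), and 27 genes had an unadjusted p under 0.05 (background 23.6% in either direction). Next came Rps27l (-0.64, adjusted p = 0.0553), Rpl38 (-0.79, 0.0622), and Rpl27 and Rps29 (-0.68 and -0.54, 0.0821 each). The Rpl21 call was lost under quantile normalization (-0.66, adjusted p = 0.0519) and without G2A liver 1, G2A liver 2, WT MEF 1, G2A MEF 1 or G2A MEF 2 (-0.76 to -0.83, adjusted p = 0.0513 to 0.566). Without WT MEF 3, 15 genes (20.3%) passed as lower and 0 as higher, beside 15.5% and 14.6% of all genes, or 30.1% in both directions; 69 of 74 then lay below 0. Medians of large and small subunit genes were -0.41 and -0.34.

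**Figure D5:**
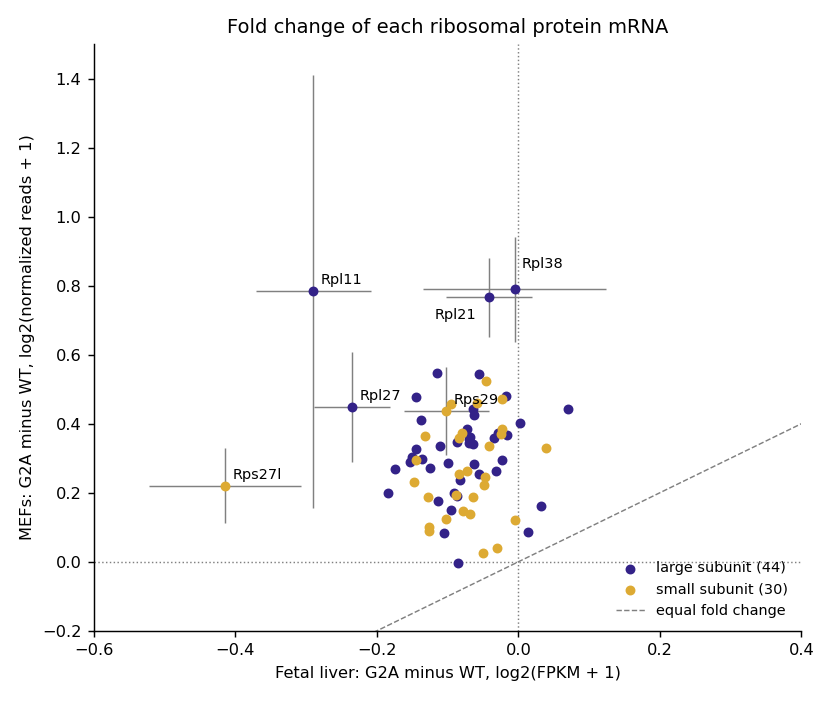
Each point is 1 of 74 ribosomal protein genes, with its log2 fold change of G2A against WT in liver (x axis) and in MEFs (y axis); grey bars are standard errors of the named genes, and the dashed line marks equal fold changes. All points lie above the line, with Rpl38, Rpl11 and Rpl21 highest and Rps27l furthest left; under quantile normalization 71 of the 74 did so, and 46 of 77 liver values then lay above 0.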

How the data were processed

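Total RNA libraries of 6 livers and 5 MEF samples were used; G2A MEF 3 was not analysed here, since no column matched it. Per the labels, the authors trimmed reads to 50 bases and mapped them to mm9 with TopHat. Among the tools and builds in the submitters' processing notes are Cufflinks 2.2.1, TopHat2 2.1.1, mm10 and mm9. The liver values were deposited as FPKM, a unit read from the named tool and the values. The MEF values were deposited as a normalized signal, which proved to be whole reads over 1 size factor per library (0.958 to 1.06, with 100% of values whole within 0.01). The sources used here do not give the annotation, the counting tool or the use of strand, so near-identical and overlapping genes are uncertain.

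For each tissue, limma 3.58.1 (R 4.3.3) with a variance trend compared the genotypes on log2(value + 1), with Benjamini-Hochberg adjustment over all genes tested and a threshold of 0.05. This scale understates fold changes of low genes. Genes needed at least 1 FPKM in at least 3 livers, or 10 normalized reads in at least 2 MEF libraries. Not tested were Rpl10l, Rpl39l and Rpl3l in either tissue, nor Rpl26 and Rpl30 in MEFs. Tissue differences used Satterthwaite degrees of freedom. On the recovered MEF reads edgeR 4.0.16 called 0 genes of 13241 and DESeq2 1.42.0 called 391 higher and 644 lower. The scripts were tested on simulated data.

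The genes and all lists were chosen with earlier results of these data known. Named genes were, per tissue, members past the threshold or the 5 with the smallest p in each direction; the 5 highest and 5 lowest levels per length; Rplp0, Rplp1, Rplp2, Rpl5, Rpl11, Rps27a, Rps6, Rps19, Rpl22 and Rpl38; restricted paralogs and their partners; the 5 smallest p of the tissue difference; and up to 2 or 3 genes of each list. Not every such gene is printed, 1 gene is not reported here, and others, such as Rpl36, Rps15a and Rps9, were chosen after their values were seen. Alternatives were the pseudocount, the filter, scaling, the variance trend, library weights, small RNA genes, the sample number as a block and leaving out each library. The Xist state, the split by shared 50-base words, the block in the tissue difference and the counts without overlap that leave out 1 library were chosen after seeing the data. Gene models came from GENCODE vM1 (NCBIM37) and start windows from RefSeq (GRCm38.p6).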

Additional observations from a re-analysis of the deposited data

Results flagged for a closer look

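The log2 fold change of Rpl21 in G2A against WT was -0.04 in liver and 0.77 in MEFs, where genotype is partly confounded with Xist state. The liver value minus the MEF value was -0.81. Of 74 genes Rpl21 alone passed the test of the difference itself (adjusted p = 0.035, background 0.869% of all genes lower in liver and 1.34% higher). The call was lost under quantile normalization (-0.66, adjusted p = 0.0519) and without any 1 of 5 libraries (adjusted p = 0.0513 to 0.566). Rpl21 had 622 ± 19.4 FPKM in WT livers against 604 ± 30.8 in G2A livers (SD, n = 3 each), with overlapping groups, and at 8914 ± 637 and 15138 ± 387 normalized reads in WT (n = 3) and G2A MEFs (n = 2). Of its 50-base words 28.3% lie elsewhere in the genome.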

How the results depend on the processing

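With quantile normalization the liver medians were 0.02 for large and 0.02 for small subunit genes (0.0233 and 0.0153), their difference 0.0079 (main -0.0118), Rps27a 0.0772, and 0 genes passed the tissue difference. Library weights gave 8 of 77 liver genes as lower (background 20.7%) and 47 of 75 MEF genes as higher (background 23.8%). DESeq2 gave 10 higher MEF genes (background 2.95%). With Xist state in the fit 1 MEF gene was higher, the MEF difference of large minus small was 0.02 (0.0173), and MEF Rpl11 was -0.47. In fits that took the replicate block, 16 MEF genes were higher (background 14.3%, and 13.7% lower), 17 tissue differences passed (23% of the 74, beside 34.1% of all genes) and the liver counts stayed at 0. In MEFs WT 3 then has no partner and adds nothing to the fold change. The numbers were not shown to pair the samples: same-numbered deviations correlated at 0.18, -0.10 and 0.10 in liver and at 0.13 and -0.03 in MEFs. With 2 G2A MEFs the deviations are mirror images (0.13 and -0.13 for WT MEF 1 with G2A MEFs 1 and 2). The MEF correlations therefore cannot decide the pairing. The share of liver FPKM in WT and G2A was 20.4% and 19.4% without small RNA genes, and 21.6% and 21.4% without globin genes too. Leaving out each library in turn gave 0 to 2 lower liver genes, 0 to 6 higher MEF genes, 0 to 15 tissue differences, and a liver difference of large minus small of -0.0283 to -0.0074. The 2 liver genes passed without G2A liver 3 (background 12% lower). The 6 MEF genes (background 11.7% higher) and the 15 tissue differences (20.3%, beside 30.1% of all genes) passed without WT MEF 3. Depth is unknown in liver, and 2 G2A libraries limit the MEF comparison. The cause of these shifts was not tested.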

Other observations

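Introns of ribosomal protein genes carry small nucleolar RNAs (snoRNAs), which guide the modification of rRNA. In liver 26 such snoRNA genes lay within 19 of the ribosomal protein genes; 21 were tested, 16 were below 0 and 5 above, and 0 passed limma's test. Snord83b, in Rpl3, was at 828, 460 and 703 FPKM in WT and 229, 236 and 239 in G2A livers, without overlap (log2 fold change -1.46, adjusted p = 0.0902), while its host was at -0.11. Snora70, in Rpl10, was at 219, 244 and 227 FPKM in WT and 116, 141 and 198 in G2A livers, also without overlap (-0.63, adjusted p = 0.145), with its host at -0.09. Of the 26, 7 were listed at 0 in at least 1 library, and reads of host and snoRNA are not separated in these values. These genes were chosen after their values were seen.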
